A study of Mus musculus with 7 samples.

Results

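Ccl5-positive CD4 T cells of the mouse spleen were the population examined. A spleen cell was counted as a Ccl5+ CD4 T cell when it had a productive T cell receptor beta (TRB) contig, at least 1 Cd4 UMI, at least 2 Ccl5 UMIs and 0 UMIs of Cd8a, Cd8b1, Foxp3 and Trdc, where a UMI (unique molecular identifier) stands for 1 captured RNA molecule. This gave 279 cells, 134 in young spleen (SP) and 145 in old SP, out of 11206 spleen cells and 21365 cells in the whole data set. The same gate without the Ccl5 condition held 1585 young and 964 old cells. The cells were chosen by their measured UMIs of Ccl5 and of the other genes of the gate, so these values are given as a description.

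The data came from male C57BL/6 mice, young (6 weeks) or old (80 weeks), from which spleen cells and intraepithelial lymphocytes (IEL) of the small intestine were taken. By the labels, cells of 3 mice were pooled for each of young SP, old SP, young IEL and old IEL, enriched with CD45 microbeads, tagged with 1 hashtag antibody per pool, and sorted as CD3+ and CD3+CD4+ cells without 7-AAD staining, with both sorts mixed 1 to 1 in IEL. From 6000 loaded cells each, 10x 5′ gene expression and T cell receptor libraries gave 5668 young SP cells (35009348 UMIs, median 5689 per cell), 5538 old SP cells (39915809, median 6533.5), 4348 young IEL cells (32248487, median 6531) and 5811 old IEL cells (33314700, median 5324). No barcode was listed in more than 1 of the 4 groups. With 1 pool per group there was no replicate and no test, age and pool cannot be told apart, and every interval below is an exact 95% interval that covers counting error only (Poisson for levels, Clopper-Pearson for shares).

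CD4 T cells are mostly known as helper cells, which act on other cells through cytokines and surface ligands. Some antigen-experienced CD4 T cells make chemokines and cytotoxic granule proteins instead, as CD8 T cells and natural killer (NK) cells do. Ccl5 (ENSMUSG00000035042, chr11:83525778-83530518 of GRCm38, minus strand) encodes a chemokine that draws in leukocytes. Gzmk (chr13:113171608-113225908, minus strand) encodes granzyme K, a granule protease, and Eomes (chr9:118478212-118486132, plus strand) encodes a T-box transcription factor of memory and cytotoxic lymphocytes.

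The Ccl5+ cells made up 8.45% of CD4-gated cells in young SP (95% interval 7.13 to 9.93) and 15.04% in old SP (12.8 to 17.5). This difference depended on the denominator. CD4-gated cells were 28.0% of all young and 17.4% of all old SP cells, and of all SP cells the Ccl5+ ones made up 2.36% in young SP (1.98 to 2.79) and 2.62% in old SP (2.21 to 3.07), with intervals that overlap. Ccl5 UMIs were also found in naive-type CD4 cells, the CD4-gated cells with 0 UMIs of Cd44 and at least 1 UMI of a naive T cell marker gene that is not named here, in which free RNA can supply single UMIs and which overlap with the Ccl5+ set. In these cells 2 or more Ccl5 UMIs were found in 6.28% of 971 cells in young SP (4.84 to 7.997) and in 6.73% of 312 in old SP (4.21 to 10.1), at median depths of 5440 and 5100.5 UMIs per cell. The naive cells are part of the CD4-gated cells, 61.3% of them in young SP against 32.4% in old SP. Shares in both sets are therefore not independent, and how close they lie depends partly on this fraction. Their intervals overlapped in young SP but not in old SP, which is no test of either age against background. Cells with exactly 2 Ccl5 UMIs were 4.73% of CD4-gated and 4.84% of naive cells in young SP. In old SP they were 4.36% and 4.17%. Cells with 2 Ccl5 UMIs thus could not be told from background by their frequency at this depth.

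At 10 or more Ccl5 UMIs, called high-Ccl5 cells here, the ages differed more. This range held 33 young cells, 2.08% of CD4-gated cells (1.44 to 2.91), and 87 old cells, 9.02% (7.29 to 11.01). Of all SP cells these were 0.582% (0.401 to 0.817) and 1.57% (1.26 to 1.93). Among naive CD4 cells the same minimum was passed by 0.412% in young SP (0.112 to 1.05) and by 2.24% in old SP (0.907 to 4.57). The median depth of the high-Ccl5 cells was 5432 UMIs in young SP and 4379 in old SP, so the old cells were the shallower ones. When every cell was thinned to 2000 UMIs before gating, Ccl5+ cells were 3.38% of CD4-gated cells in young SP (2.31 to 4.76) and 10.9% in old SP (8.67 to 13.5).

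Ccl5 itself ranged from 2 to 77 UMIs per cell in young SP, with a median of 2, and from 2 to 713 in old SP, with a median of 27. Of the young cells 75 had exactly 2 Ccl5 UMIs, and of the old cells 42 did. Just outside the gate, 351 young and 203 old CD4-gated cells had exactly 1. Among the high-Ccl5 cells the median was 20 UMIs in young SP and 64 in old SP.

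**Figure D1:**
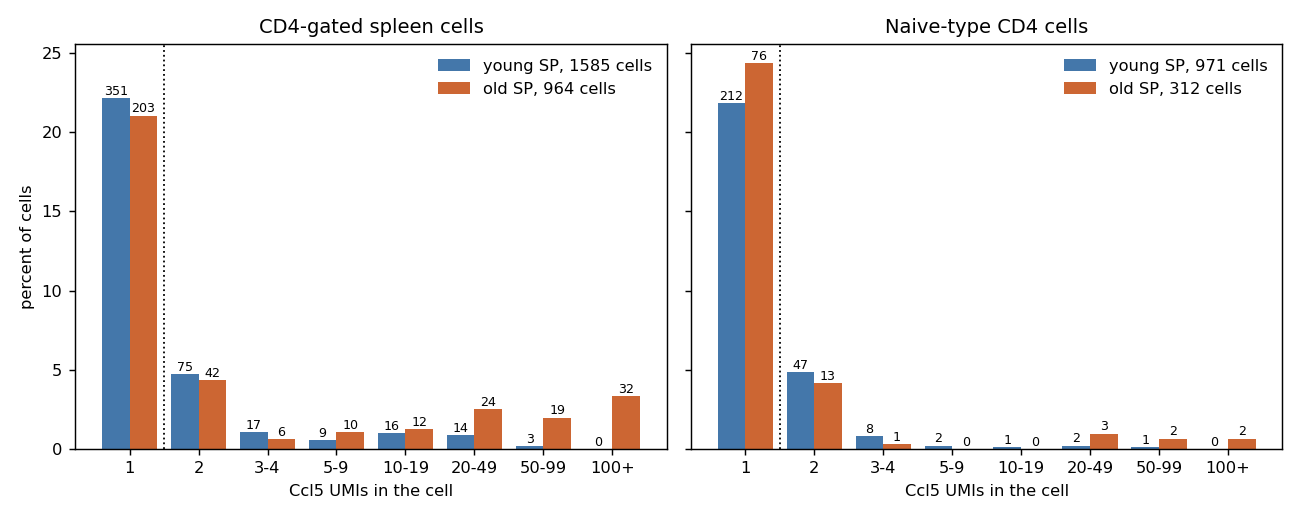
Percent of CD4-gated cells (left) and of naive CD4 cells (right) at each number of Ccl5 UMIs per cell in young and old SP, with the count of cells above each bar and cells with 0 Ccl5 UMIs not drawn. The dotted line marks the lower limit of the gate. At 10 or more UMIs old SP holds 9.02% of its CD4-gated cells and young SP 2.08%.

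Other genes differed along the Ccl5 range. In old SP the Gzmk level, in UMIs per 10000 UMIs of the cells named, was 0.506 in cells with 1 Ccl5 UMI, 0 in cells with 2, 2.72 in cells with 3 to 9 and 15.2 (14.0 to 16.4) in cells with 10 or more. The level of Nkg7, which encodes a granule membrane protein of cytotoxic cells, ran through 0.888, 0.161, 7.73 and 23.1 over the same steps. In young SP Nkg7 ran through 0.249, 0.603, 2.86 and 12.3. Ccr7, a homing receptor of naive and central memory cells, took the other direction, with 4.79, 4.43, 2.61 and 0.592 in young SP and 3.53, 2.73, 1.29 and 0.524 in old SP. Cells with 2 Ccl5 UMIs thus resembled cells with 1 more than cells with 10 or more for these 3 genes, and values are given below both for all Ccl5+ cells and for the high-Ccl5 cells.

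Gzmk and Eomes were seen in most old but few young high-Ccl5 cells. Of the 87 old high-Ccl5 cells 71 had a Gzmk UMI, 50 had an Eomes UMI, 48 had both and 14 had neither. Of the 33 young high-Ccl5 cells 2 had a Gzmk UMI and 1 had an Eomes UMI. After thinning to 2000 UMIs, Gzmk was found in 75.9% of the old cells (65.5 to 84.4), and in 3.22% of old naive CD4 cells (1.55 to 5.83). It was found in 1 of the 33 thinned young cells, 3.03% (0.0767 to 15.8), and in 0.206% of young naive CD4 cells. Of the 10 Gzmk UMIs of the young high-Ccl5 cells, 9 came from 1 cell. Eomes was found after thinning in 28.7% of the old cells (19.5 to 39.4) and in 2.57% of old naive CD4 cells. Over all 145 old Ccl5+ cells 51.7% had a Gzmk UMI and 35.9% an Eomes UMI, and of the 58 with 2 to 9 Ccl5 UMIs 4 and 2 cells did. The description as Gzmk and Eomes positive thus applied to part of the old cells, nearly all of them high-Ccl5 cells, and the data went against it for the young ones.

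Gzmk was higher in the old high-Ccl5 cells than in 3 other sets of old spleen cells. The Gzmk level was 15.2 in them against 0.811 in Ccl5-negative Cd44+ CD4 cells (192 cells with 0 Ccl5 UMIs and at least 1 UMI of Cd44, a marker of antigen experience), 0.663 in naive CD4 cells and 0.635 in 2000 Ccl5+ CD8 cells. For Eomes the levels were 2.67, 0.0416, 0.183 and 1.49 in the same order. Gzmk was thus low in the CD8 cells, whereas the difference in Eomes from the CD8 cells was under 2-fold. Of these 2000 CD8 cells 1130 (56.5%) belonged to 1 clonotype (defined below), so their pooled levels rest largely on it. The old cells with 2 to 9 Ccl5 UMIs had a Gzmk level of 0.741 and an Eomes level of 0.195. All of these UMIs lay in the 16 cells with 3 to 9 Ccl5 UMIs, where Gzmk was at 2.72 (1.64 to 4.25) and Eomes at 0.716 (0.232 to 1.67), and none in the 42 cells with 2.

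**Figure D2:**
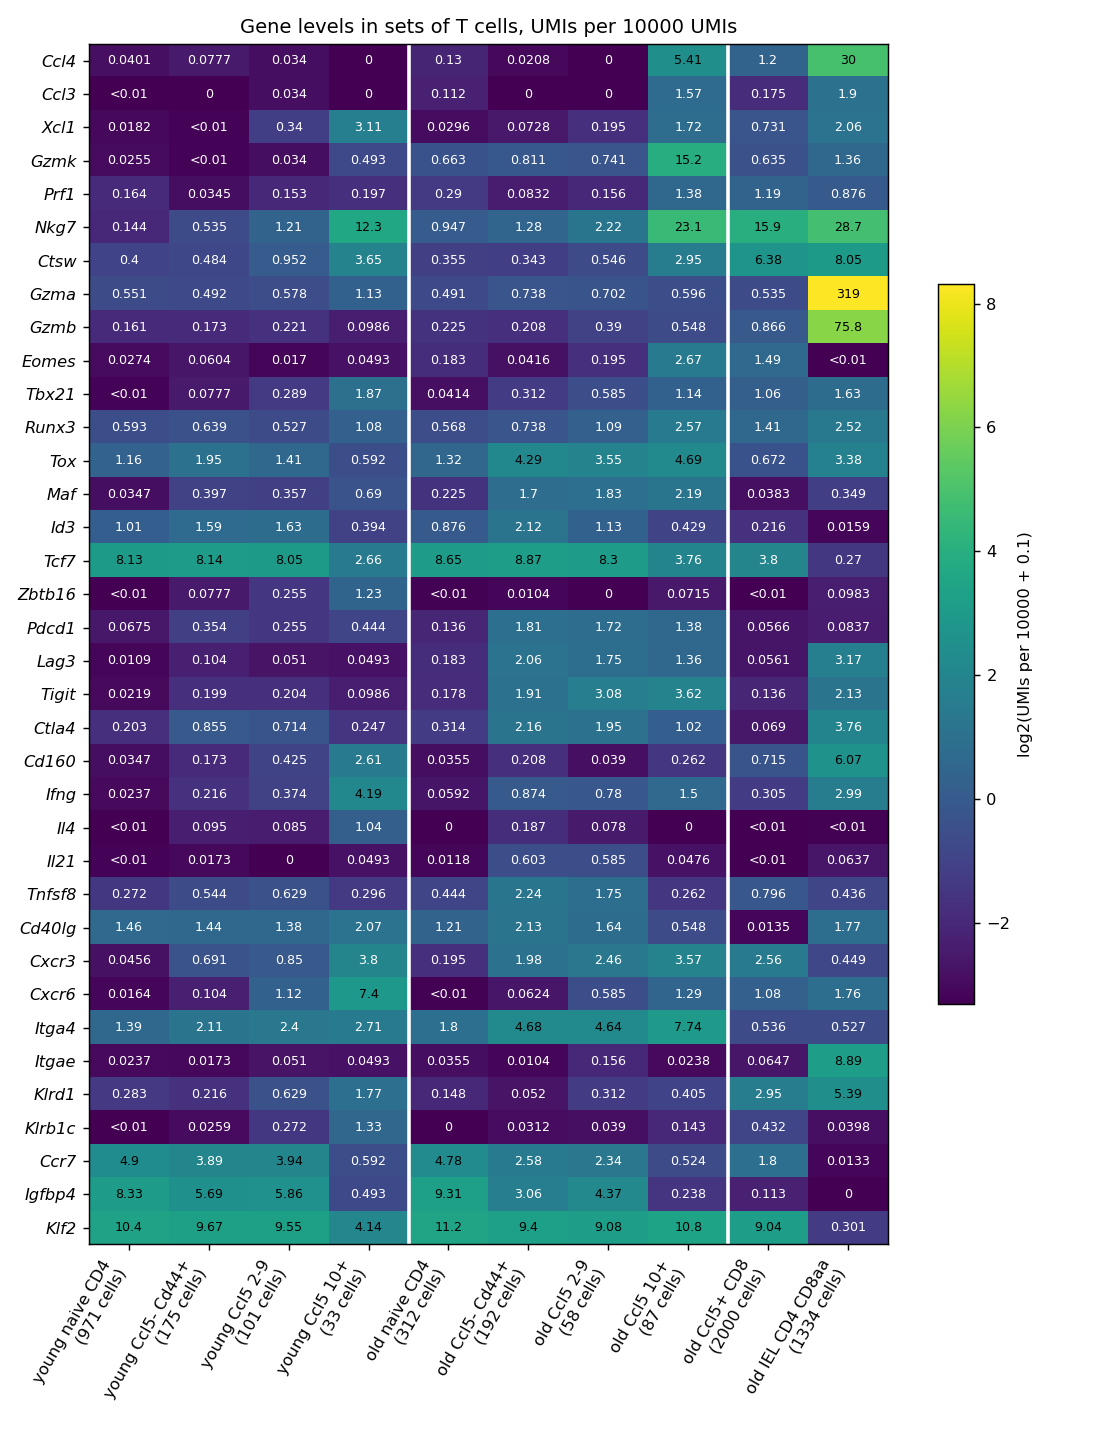
Heat map of levels of genes (rows) in sets of spleen and IEL cells (columns), with the level in UMIs per 10000 UMIs printed in each square and its log2 after adding 0.1 as the colour. Gzmk reads 15.2 in old high-Ccl5 CD4 cells and 0.493 in the young ones.

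The first comparison asked what distinguished old Ccl5+ CD4 cells from the Ccl5-negative Cd44+ CD4 cells of the same spleens. A Cd44 UMI was required of the comparison cells only. Of the 87 old high-Ccl5 cells 26 had UMIs of Gzmk and Cd44, 10 of Cd44 alone, 45 of Gzmk alone and 6 of neither. In the 58 cells with 2 to 9 Ccl5 UMIs these counts were 2, 18, 2 and 36. A gene was counted as higher or lower when the levels differed at least 2-fold after adding 0.1 to both, among genes with a mean level of at least 0.2 and at least 20 UMIs over both sets. Of 6211 genes, 89 were higher in Ccl5+ cells (1.43% of the genes compared) and 48 were lower (0.773%). The median log2 ratio of all genes compared was -0.01, and the median depth was 4379 UMIs in Ccl5+ cells and 4591.5 in the Ccl5-negative Cd44+ cells.

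Chemokines led the higher genes. Ccl4, which encodes a further chemokine, had a level of 3.36 (2.93 to 3.82) in old Ccl5+ cells and 0.0208 in the Cd44+ comparison cells, a log2 ratio of 4.84. Ccl3, which encodes another chemokine, had 66 UMIs in the Ccl5+ cells and 0 in the comparison cells, at least 31.3-fold higher against a floor of 3 counts over the set. Xcl1, which attracts cross-presenting dendritic cells, had levels of 1.14 and 0.0728. These transcripts lay in part of the Ccl5+ cells, with Ccl4 in 24.8% of them, Xcl1 in 17.2% and Ccl3 in 16.6%. The top cell held 15.4% of the Ccl4, 20.8% of the Xcl1 and 25.8% of the Ccl3 UMIs. Of the 4 chemokine genes compared 3 were higher and 1, Cxcl10, was lower with levels of 0.0591 and 0.458. The list had a median log2 ratio of 3.13.

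Granule and killing genes followed. Of 13 compared, 7 were higher (Gzmk, Prf1, Nkg7, Fasl, Ctsw, Ctsd and Crtam) and 0 were lower, with a median log2 ratio of 1.14. Nkg7 had a level of 15.2 (14.3 to 16.2) against 1.28, and Gzmk 9.70 (8.97 to 10.5) against 0.811. Prf1, the pore-forming protein perforin, had levels of 0.917 and 0.0832, and Ctsw, cathepsin W, 2.04 and 0.343. Gzma and Gzmb, the granzymes of classical killer cells, were not counted, with levels of 0.636 against 0.738 for Gzma and 0.488 against 0.208 for Gzmb. Gzma stood at 0.491 in old naive CD4 cells, which places its level in Ccl5+ cells near background.

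Among 19 transcription factor genes 6 were higher (Eomes, Tbx21, Runx3, Id2, Hopx and Nr4a2) and 2 were lower (Id3 and Bcl6). Eomes led them with levels of 1.73 (1.43 to 2.07) and 0.0416, a log2 ratio of 3.69. Tbx21, which encodes T-bet, had levels of 0.932 and 0.312, and Runx3, a factor of cytotoxic lineages, 2.01 and 0.738. Id3, an inhibitor of E proteins kept high in naive and memory cells, had 0.695 and 2.12, and Bcl6, the factor of follicular helper cells, 0.163 and 0.458. The list as a whole had a median log2 ratio of 0.10.

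Of 12 chemokine receptor and homing genes 3 were higher, 1 was lower and 8 were not counted, with a median log2 ratio of 0.13 against -0.01 over all genes. Cxcr6 had levels of 1.02 and 0.0624, and Ccr2 0.562 and 0.0208, and the lower gene was Ccr7 with 1.21 and 2.58. Of 11 costimulation and help genes 0 were higher and 3 were lower. These were Cd40lg, the ligand by which helper cells license B cells and dendritic cells (0.961 and 2.13), Tnfrsf4 (0.784 and 1.73) and Tnfsf8 (0.828 and 2.24). Il21, a cytokine of follicular helper cells, had levels of 0.251 and 0.603. The remaining highest genes were Ctla2a (3.53 and 0.218), Rasgef1b (0.636 and 0.0104), Ier3 (0.946 and 0.0832) and Esm1 (0.887 and 0.104). Among the lowest were Cd200, a ligand that restrains myeloid cells (0.118 and 1.01), Gpm6b (0.562 and 2.07) and Hs6st3 (log2 ratio -1.64), followed by Spry1 (-1.35), Nav2 (-1.34) and Cpq (-1.34). Apoe was listed at 0 in Ccl5+ cells, but all 47 of its UMIs in the comparison set came from 1 cell.

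Inhibitory receptors did not follow the same split. Of 6 compared, only Entpd1 was counted as higher, with levels of 0.503 and 0.135. Pdcd1, which encodes PD-1, had levels of 1.51 and 1.81, Lag3 1.51 and 2.06, and Tigit 3.42 and 1.91. Both sets of old cells therefore carried these transcripts. Of the 71 high-Ccl5 cells with a Gzmk UMI, 52 also had a UMI of Pdcd1, Lag3 or Tigit.

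In the 87 old high-Ccl5 cells 159 of 6185 genes were higher than in the Cd44+ cells (2.57%) and 155 were lower (2.51%). Ccl4 had a level of 5.41 (4.73 to 6.16), Nkg7 of 23.1 (21.7 to 24.6) and Prf1 of 1.38. Granule and killing genes were higher in 8 of 13, and Gzmb was counted here, with levels of 0.548 (0.347 to 0.822) and 0.208. Of 7 inhibitory receptor genes 1 was higher (Entpd1) and 2 were lower (Ctla4 and Btla), against 1 and 0 of 6 for all Ccl5+ cells. Naive T cell genes were now lower in 6 of 10 (Ccr7, Tcf7, Satb1, Igfbp4, Dapl1 and Actn1), against 1 of 10 for all Ccl5+ cells. Igfbp4 had a level of 0.238 in high-Ccl5 cells and 3.06 in Cd44+ cells. Il21 had a level of 0.0476, and Spp1 and Sostdc1, which had levels of 1.07 and 2.96 in the Cd44+ cells, were at 0.

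Defining markers of other cell types were mostly low, except in the NK cell list, which holds Eomes. In old high-Ccl5 cells the 6 B cell markers summed to a level of 1.29 with 4 of them seen, led by Cd74 at 0.619, and with Ms4a1 at 0. In the Cd44+ cells the same sum was 0.728. Of the 6 myeloid markers only Csf1r was seen, at 0.0238, while platelet and erythroid markers were at 0. The 5 NK cell markers summed to 2.81 in the high-Ccl5 cells and 0.0728 in the Cd44+ cells, with Eomes at 2.67 and Klrb1c at 0.143 in the former and Ncr1, Klra8 and Klra4 at 0 in both. Mitochondrial genes took 1.12% of UMIs in the high-Ccl5 cells and 1.41% in the Cd44+ cells, and ribosomal protein genes 22.0% and 24.7%. For all old Ccl5+ cells, the comparison was repeated without any cell that had a UMI of Cd79a, Cd74, Lyz2 or Pf4, and 92 genes were then higher than in the Cd44+ cells and 66 lower, against 89 and 48 with these cells kept. For the high-Ccl5 cells alone, the part of the B cell markers in the result was not tested.

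**Figure D3:**
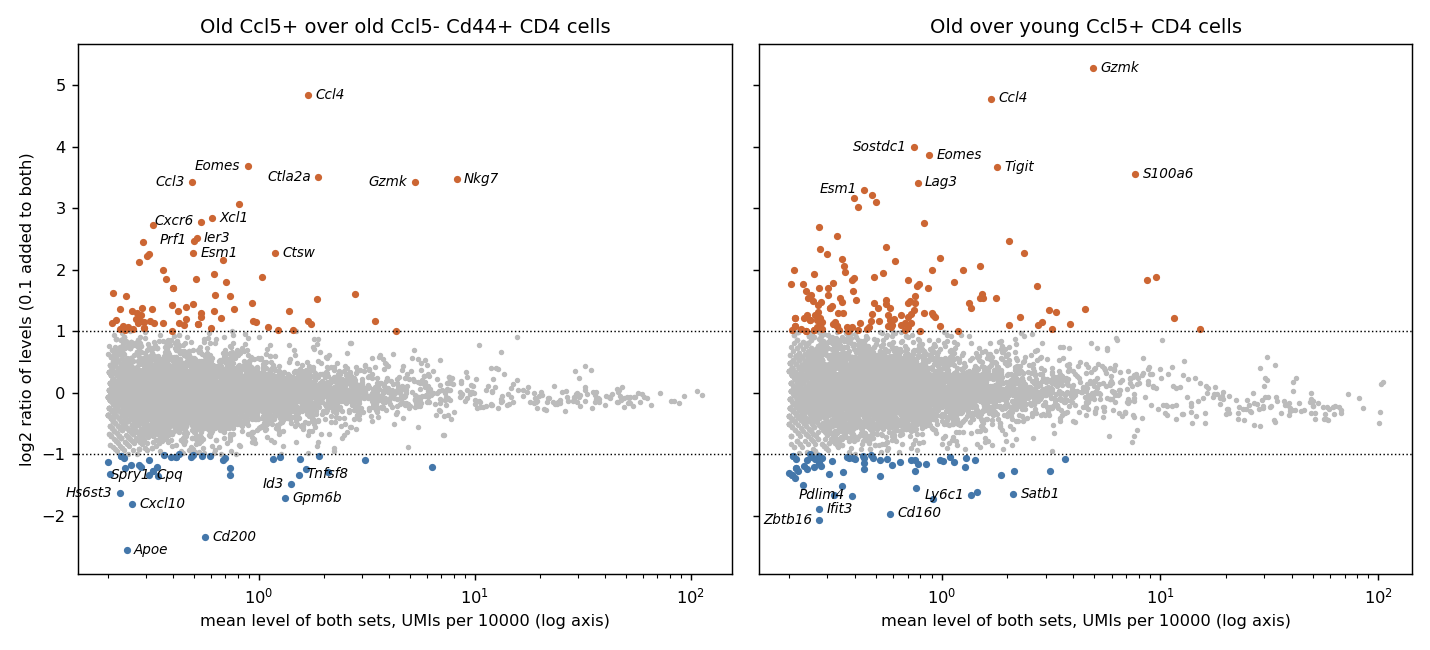
Log2 ratio of levels against the mean level (UMIs per 10000, log axis) for genes compared between sets of cells, for old Ccl5+ cells over old Ccl5-negative Cd44+ cells (left) and over young Ccl5+ cells (right), with T cell receptor segment genes left out and dotted lines at a 2-fold difference. Most genes lie near 0, and Ccl4, Gzmk and Eomes lie far above it in old Ccl5+ cells.

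In young SP fewer genes separated Ccl5+ cells from Ccl5-negative Cd44+ cells (134 and 175 cells, median depths of 5498.5 and 5870 UMIs). Of 5906 genes 53 were higher in Ccl5+ cells (0.897%) and 14 were lower (0.237%). B cell markers summed to 0.480 and 0.112, and ribosomal shares were 28.0% and 28.7%. The 5 NK cell markers summed to 0.581 and 0.0864, and Zbtb16, the marker of invariant NKT cells, was at 0.505 and 0.0777. The alpha chain of invariant NKT cells, described below, was in 24 of the 134 Ccl5+ and 0 of the 175 Cd44+ cells. The part of these cells in the comparison was not tested. The NK receptor genes Klrk1, Klrd1 and Klrb1c, the 3 compared of that list, were all higher, with Klrd1 at 0.922 and 0.216. Ifng, the main type 1 cytokine, had levels of 1.35 (1.11 to 1.63) and 0.216, and Il4, the type 2 cytokine, 0.329 and 0.0950. Cxcr6 had levels of 2.73 and 0.104, and Xcl1 1.05 and 0.00864. Of 9 granule genes Nkg7 (4.06 and 0.535) and Ctsw (1.64 and 0.484) were higher and 0 were lower.

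In the 33 young high-Ccl5 cells 345 of 5953 genes were higher than in the Cd44+ cells (5.8%) and 169 were lower (2.84%). These counts rest on 202819 UMIs and are not comparable with those of all 134 Ccl5+ cells (791331 UMIs). Marker levels of other cells moved with them. The 6 B cell markers summed to 1.28 in the high-Ccl5 cells and 0.112 in the Cd44+ cells, led by Cd74 at 0.986 in the former, and the 5 NK cell markers to 1.43 and 0.0864, led there by Klrb1c at 1.33. Zbtb16, the marker of invariant NKT cells, was at 1.23 and 0.0777, and ribosomal protein genes took 22.4% and 28.7% of UMIs. The part of the B cell markers and the ribosomal share was not tested. Ifng had a level of 4.19 (3.35 to 5.18), Tbx21 of 1.87 against 0.0777, and Id2, an E protein inhibitor of innate-like and effector cells, of 12.5 against 1.20. Of 5 cell cycle genes 4 were higher (Top2a, Birc5, Stmn1 and Pclaf), with Birc5 at 0.986 and 0.155. Naive T cell genes were lower in 6 of 10 (Ccr7, Lef1, Tcf7, Igfbp4, Dapl1 and Actn1), with Igfbp4 at 0.493 and 5.69.

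Old high-Ccl5 cells were not uniform. The 50 cells with an Eomes UMI (median depth 4559.5 UMIs) had a Gzmk level of 20.8 (19.1 to 22.7) and the 37 without one (median depth 4120) a level of 6.34 (5.18 to 7.69). Ccl5, Ccl4, Ccl3 and Tigit went the same way, with Ccl4 at 7.89 and 1.53 and Tigit at 4.89 and 1.65. Other genes went the opposite way. Cxcr6, a receptor of tissue-resident and NKT cells, had levels of 0.313 (0.135 to 0.616) with Eomes and 2.81 (2.05 to 3.74) without. Ly6c2, a surface protein of effector cells, had levels of 0.703 and 3.78, and Xcl1 1.02 and 2.81. The sets were split on a UMI of Eomes, so a deeper cell was more likely to fall in the first.

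The second comparison set old Ccl5+ CD4 cells against young ones. Of 6062 genes 159 were higher in old cells (2.62%) and 72 were lower (1.19%), with a median log2 ratio of 0.04 over all genes. High-Ccl5 cells were 87 of 145 old cells and 33 of 134 young ones, so the mixture of cells differed as well as the age. The 6 B cell markers summed to a level of 1.54 in old and 0.480 in young Ccl5+ cells, led by Cd74 at 1.06 and 0.379, with Ms4a1 at 0 in both. Ribosomal protein genes took 23.3% of UMIs in old and 28.0% in young cells, and mitochondrial genes 1.23% and 1.27%. Without cells that had a UMI of Cd79a, Cd74, Lyz2 or Pf4, 165 genes were higher in old cells and 78 lower. The part of the ribosomal share was not tested. Gzmk had a level of 9.70 in old cells and 0.152 in young cells, a log2 ratio of 5.28. Ccl4 had 3.36 and 0.0253, Eomes 1.73 and 0.0253, and S100a6, a calcium-binding protein of activated and memory cells, 14.3 and 1.12. Esm1 had 60 UMIs in old and 0 in young cells, at least 23.4-fold higher against a floor of 3 counts over the set. Sostdc1 had 101 UMIs in old and 0 in young cells, but they lay in 8 old cells and none of those had 5 or more Ccl5 UMIs.

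Inhibitory receptor genes were higher in old Ccl5+ cells in 5 of 7 (Pdcd1, Lag3, Tigit, Ctla4 and Entpd1) and lower in 1, Cd160, with a median log2 ratio of 1.58. Tigit had a level of 3.42 (2.99 to 3.89) in old cells and 0.177 in young cells, and Lag3 1.51 and 0.0505. Granule and killing genes were higher in 6 of 14 (Gzmb, Gzmk, Prf1, Nkg7, Cst7 and Crtam) and lower in 0. Naive T cell genes were higher in 0 of 10 and lower in 6 (Ccr7, Lef1, Satb1, Igfbp4, Dapl1 and Actn1), with a median log2 ratio of -1.17, but among high-Ccl5 cells alone only 1 of 9 was lower (Satb1), with a median of -0.30. Lower too were Zbtb16 (0.0444 in old and 0.505 in young cells), the factor that programmes innate-like T cells, the NK receptor gene Klrb1c (0.104 and 0.543) and Cd160 (0.177 and 0.986). The other lowest genes were Ifit3, Ckb, Pdlim4 and Ly6c1, with log2 ratios of -1.90, -1.73, -1.68 and -1.66.

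Among high-Ccl5 cells alone 228 of 4694 genes were higher in old SP (4.86%) and 196 were lower (4.18%). Between these cells the B cell marker sums were 1.29 in old and 1.28 in young SP, and the ribosomal shares 22.0% and 22.4%. Ccl4 was at 5.41 in old and 0 in young cells, where 0 UMIs left an upper limit of 0.182. Nkg7 was found in 84.8% of thinned young and 87.4% of thinned old cells, with levels of 12.3 and 23.1, whereas Ccl4 was found in 0% and 29.9% (20.5 to 40.6), and Tigit in 3.03% and 37.9%. The opposite order held for Cxcr6, with 60.6% of young and 13.8% of old cells, for Ifng, with 42.4% and 23.0%, and for Il4, with 18.2% and 0%. Before thinning the shares were 93.9% and 94.3% for Nkg7, 0% and 41.4% for Ccl4, 6.06% and 52.9% for Tigit, 75.8% and 17.2% for Cxcr6, 60.6% and 37.9% for Ifng, and 30.3% and 0% for Il4, with young cells the deeper (5432 against 4379 UMIs). In thinned naive CD4 cells of the same pools Nkg7 was found in 1.65% of young and 5.14% of old cells, Ccl4 in 0.722% and 1.93%, Tigit in 0.412% and 0.643%, Cxcr6 in 0.103% and 0%, and Ifng in 0.103% and 0.643%. Of 5 cell cycle genes 3 were lower in old cells (Birc5, Stmn1 and Pclaf).

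**Figure D4:**
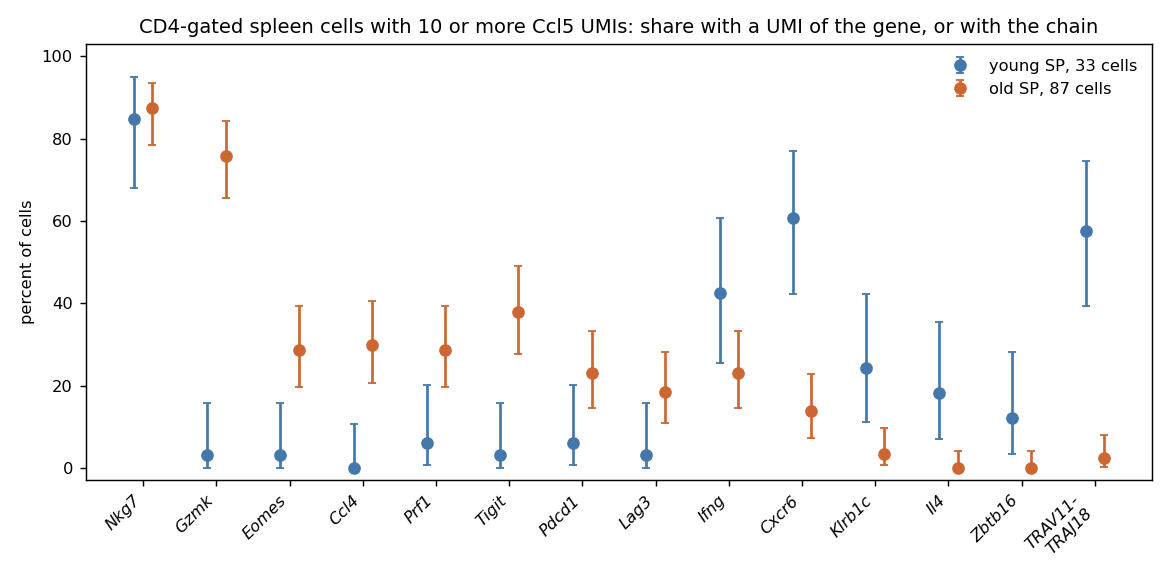
Share of cells (%) with at least 1 UMI of each gene after thinning every cell to 2000 UMIs, in the 33 young and 87 old cells with 10 or more Ccl5 UMIs, with exact 95% intervals that cover counting error and, at the far right, the unthinned share with the TRAV11-TRAJ18 alpha chain. Gzmk reads 75.9% in old and 3.03% in young cells, and Cxcr6 13.8% and 60.6%.

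More of the young than of the old high-Ccl5 cells carried an invariant receptor. Invariant NKT cells carry an alpha chain made of TRAV11 (chr14:53519303-53519859 of GRCm38, plus strand) and TRAJ18 (chr14:54200777-54200842, plus strand) and recognise lipids on CD1d. This chain was found in 19 of 33 young high-Ccl5 cells (57.6%, 39.2 to 74.5) and in 2 of 87 old ones (2.30%, 0.280 to 8.06). Over all Ccl5+ cells it was in 24 of 134 young (17.9%, 11.8 to 25.5) and 3 of 145 old cells (2.07%). It was in 0 Ccl5-negative Cd44+ and 0 naive CD4 cells of either age. Of the 24 young cells 10 had the first alpha chain junction below, 8 the second and 2 the third. They are shown because they differ at few bases, and capitals mark bases that match neither the end of the V segment nor the J segment in GENCODE M21.
TRAV11-TRAJ18 junction 1: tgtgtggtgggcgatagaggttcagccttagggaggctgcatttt
TRAV11-TRAJ18 junction 2: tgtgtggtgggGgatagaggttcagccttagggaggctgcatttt
TRAV11-TRAJ18 junction 3: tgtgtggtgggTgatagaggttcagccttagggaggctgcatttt
Of the beta chains of the 24 cells, 13 had a joint call of TRBV12-2 and TRBV13-2, and 4 used TRBV29. Zbtb16 was seen in 13 of the 33 young high-Ccl5 cells, 11 of them with the chain.

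Within the young high-Ccl5 cells, the 19 with this chain and the 14 without it differed. Cxcr6 had levels of 11.3 and 3.03, Xcl1 5.42 and 0.522, Il4 1.78 and 0.209, and Zbtb16 2.15 and 0.209. Gzmk was at 0 in the 19 cells and at 1.04 in the 14. With cells carrying the chain left out of both ages, 326 of 3931 genes were higher in the 85 old cells than in the 14 young ones (8.29%) and 182 were lower (4.63%). B cell markers summed to 1.31 in these old and 2.19 in these young cells, with Cd74 at 0.618 and 1.56. The 4 markers of naive CD4 T cells summed to 3.41 and 6.99, and ribosomal shares were 21.8% and 22.3%. The part of these markers in the result was not tested. Gzmk, Eomes, Ccl4, Lag3 and Tigit were among the genes higher in old cells here too, but other calls were lost. Inhibitory receptors were higher in 3 of 6, against 5 of 6 with the chain included, since Pdcd1 (1.43 in old and 0.939 in young cells) and Ctla4 (1.06 and 0.522) were no longer counted. Ifng was no longer counted as lower (1.46 and 2.71), and Il4, Zbtb16 and Klrb1c had too few UMIs to be compared. Xcl1, not counted before, was higher in old cells (1.56 and 0.522). Granule genes were higher in 8 of 13, against 5 of 14 with the chain included, with Nkg7 (23.5 and 8.66), Fasl and Rab27a now counted, and Gzma was lower. The 14 young cells held 95849 UMIs, against 202819 in all 33. They had 9 UMIs of Pdcd1, 5 of Xcl1, 2 of Tigit and 1 of Lag3. Whether calls changed with the chain or with the smaller set was not tested. In whole spleen the chain was found in 77 young cells (1.36% of cells) and in 28 old cells (0.506%), of which 32 and 5 had a Cd4 UMI.

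The third comparison set the spleen cells against CD4 CD8aa IEL, which are CD4 T cells of the intestinal epithelium that express Cd8a without Cd8b1. These were 1334 cells in old IEL and 443 in young IEL with a TRB contig, a Cd4 and a Cd8a UMI and no UMI of Cd8b1, Trdc or Foxp3. The Ccl5 level was 157 in old Ccl5+ spleen cells and 249 in the high-Ccl5 ones, both chosen by their Ccl5 UMIs. It was 326 in old IEL, which were chosen with no Ccl5 condition. Of 6369 genes 315 were higher in old Ccl5+ spleen cells than in old IEL (4.95%) and 508 were lower (7.98%). Tissue, pool and preparation cannot be told apart in this comparison. Of these old IEL 96.2% shared a clonotype (defined below) and 35.5% belonged to the largest, so their pooled levels rest largely on expanded clonotypes. Ribosomal protein genes took 23.3% of UMIs in the old spleen cells and 14.0% in old IEL, and mitochondrial genes 1.23% and 0.788%. B cell markers summed to 1.54 and 0.564, and without cells that had a UMI of Cd79a, Cd74, Lyz2 or Pf4 the counts were 311 higher and 530 lower. Epithelial markers summed to 0.0591 in spleen cells and 0.227 in IEL, with Epcam the highest in both. The part of these markers and of the ribosomal share in this comparison was not tested.

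The granule genes differed between the tissues. Of 15 compared, 8 were lower in spleen cells and 1, Gzmk, was higher, with levels of 9.70 in spleen and 1.36 (1.28 to 1.45) in IEL. Gzma had a level of 0.636 in spleen and 319 in IEL, and Gzmb 0.488 and 75.8. Prf1 and Nkg7 were not counted, with levels of 0.917 and 0.876 for Prf1 and 15.2 and 28.7 for Nkg7. Eomes had a level of 1.73 in spleen and 0.00266 in IEL. The old high-Ccl5 cells differed from the IEL in like numbers of genes, with 315 of 6358 higher (4.95%) and 541 lower (8.51%), and with Gzmk, Ctsd and Crtam the higher granule genes.

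Other genes differed as well. Itgae, the alpha E integrin that binds E-cadherin on epithelium, had levels of 0.0739 in spleen and 8.89 in IEL, and Fcer1g and Tyrobp, the signalling adaptors of NK receptors, 0.0591 and 15.1, and 0.0148 and 4.15. Itgae had a UMI in 96.2% of the old IEL, but Fcer1g in 43.7% and Tyrobp in 32.3%, so the IEL levels of these adaptors came from part of the cells. Cd7, Actn2 and Jaml were also among the lowest genes in spleen cells, with log2 ratios of -5.15, -5.53 and -5.01. Higher in spleen were Klf2, the factor behind S1pr1 expression and recirculation (10.1 and 0.301), S100a6 (14.3 and 0.0505), S100a4 (4.01 and 0.00266), Ly6a (6.25 and 0.0850), Ctla2a (3.53 and 0.0106), Izumo1r (3.79 and 0.0266), Cd2 (4.85 and 0.125) and Gm2682 (6.15 and 0.0372). Homing genes were higher in spleen in 10 of 15 and lower in 3, and naive T cell genes were higher in 9 of 10. Pdcd1 was higher in spleen (1.51 and 0.0837), whereas Lag3 (1.51 and 3.17), Ctla4 (1.38 and 3.76), Cd160 and Cd244a were lower.

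In young mice 290 of 6179 genes were higher in Ccl5+ spleen cells than in CD4 CD8aa IEL (4.69%) and 514 were lower (8.32%), with ribosomal shares of 28.0% and 14.7%. Epithelial markers summed to 0 in these spleen cells and 0.576 in IEL, led there by Epcam at 0.565. The part of these was not tested. Granule genes were lower in 10 of 14 there and higher in 0. Gzmk had a level of 0.152 in the young spleen cells. Of these spleen cells 101 had 2 to 9 Ccl5 UMIs and 33 had 10 or more. The 4 markers of naive CD4 T cells summed to 18.8 in the former, 4.39 in the latter and 0.298 in young IEL. The young high-Ccl5 cells were not set against IEL on their own.

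Old high-Ccl5 CD4 cells were also set against old Ccl5+ CD8 spleen cells, of which 56.5% belonged to 1 clonotype. The CD8 cells were deeper (median 9334 UMIs against 4379) and had been taken with a minimum of 2 Ccl5 UMIs, not 10. Of 5828 genes 352 were higher in the CD4 cells (6.04%) and 123 were lower (2.11%), with a median log2 ratio of 0.26 over all genes. Ribosomal protein genes took 22.0% of UMIs in the CD4 and 32.98% in the CD8 cells, mitochondrial genes 1.12% and 1.67%, and B cell markers summed to 1.29 and 0.2997. The part of these in the result was not tested. Inhibitory receptors were higher in 5 of 7 with a median log2 ratio of 2.73. Tigit had levels of 3.62 and 0.136, Pdcd1 1.38 and 0.0566, and Lag3 1.36 and 0.0561. The 5 NK receptor genes compared were all lower, with Klrd1 at 0.405 and 2.95. Of 15 granule genes Gzmk and Rab27a were higher and Gzmm (0.0953 and 5.74) and Ctsw (2.95 and 6.38) were lower.

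Cells that share a receptor junction are usually taken as 1 clone. A clonotype was a TRB junction (CDR3) nucleotide sequence with its V gene. The 134 young Ccl5+ cells held 134 clonotypes, so 0 cells shared one (upper limit 2.72%). The 145 old cells held 139, of which 5 had 2 or more cells, 11 cells in all (7.59%, 3.85 to 13.2). All 11 were high-Ccl5 cells, 12.6% of those 87 (6.48 to 21.5), and the largest clonotype held 3 cells. In Ccl5-negative Cd44+ cells of old SP 4.17% of cells (1.82 to 8.04) shared a clonotype, an interval that overlaps.

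Old Ccl5+ CD8 spleen cells and old CD4 CD8aa IEL, the latter chosen with no Ccl5 condition, were much more clonal. Of old Ccl5+ CD8 spleen cells 65.9% shared a clonotype (63.7 to 67.9), and the largest held 1130 cells or 56.5%. Of old CD4 CD8aa IEL 96.2% did (95.004 to 97.1), with 473 cells or 35.5% in the largest. Drawn down to 33 cells, the expected number of clonotypes was 32.1 in old high-Ccl5 CD4 cells, 15.2 in old Ccl5+ CD8 cells, 10.5 in old IEL and 28.9 in young IEL. Old high-Ccl5 CD4 cells were thus close to 1 cell per clonotype.

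**Figure D5:**
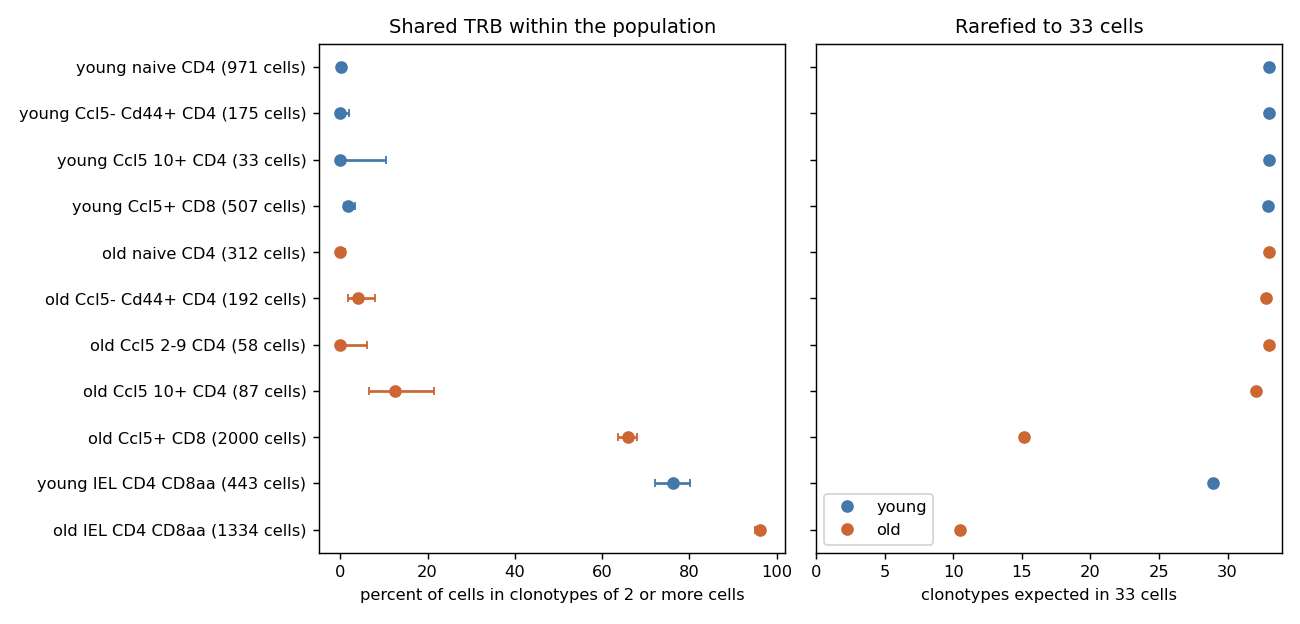
Share of cells (%) in clonotypes of 2 or more cells in each set, with exact 95% intervals that cover counting error, and the expected number of clonotypes in 33 cells. Old high-Ccl5 CD4 cells read 12.6%, old Ccl5+ CD8 cells 65.9% and old CD4 CD8aa IEL 96.2%.

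The beta chain junctions of the 5 shared clonotypes are shown because they define these clonotypes, with capitals for bases that match neither V nor J segment. Clonotypes 1 and 5 used TRBV3 (chr6:41048290-41048828), clonotype 2 TRBV19 (chr6:41178375-41179048), and clonotypes 3 and 4 TRBV1 (chr6:40891229-40891885), all on the plus strand of GRCm38.
clonotype 1 TRB: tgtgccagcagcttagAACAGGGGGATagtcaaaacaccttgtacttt
clonotype 2 TRB: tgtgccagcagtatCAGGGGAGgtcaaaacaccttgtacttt
clonotype 3 TRB: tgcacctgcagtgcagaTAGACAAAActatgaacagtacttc
clonotype 4 TRB: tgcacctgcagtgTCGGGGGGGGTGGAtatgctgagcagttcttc
clonotype 5 TRB: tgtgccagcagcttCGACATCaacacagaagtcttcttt
The 3 Ccl5+ cells of clonotype 1 had 42, 83 and 90 Ccl5 UMIs and shared 1 alpha chain, TRAV4D-3 joined to TRAJ38.
clonotype 1 TRA: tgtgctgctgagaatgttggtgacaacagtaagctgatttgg
The cells of clonotype 2 had 28 and 125 Ccl5 UMIs, those of clonotype 3 126 and 173, those of clonotype 4 32 and 45, and those of clonotype 5 10 and 37. The 2 cells of clonotype 4 shared 1 alpha chain, and so did the 2 cells of clonotype 5. In clonotypes 2 and 3 the alpha chain listed first was found in 1 of the 2 cells, so a shared alpha chain was not shown.

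Some cells of these clonotypes fell outside the gate. Clonotype 1 had 5 cells in old SP and clonotype 2 also had 5, and the 2 and 3 cells beyond the Ccl5+ set had no Cd4 UMI but 10 or more Ccl5 UMIs. A cell without a Cd4 UMI is not shown to lack Cd4 at this depth. The 5 clonotypes were in 0 Cd8b1+ cells of old SP and in 0 cells of the other 3 groups. Over all 145 old Ccl5+ cells, 21 had a TRB found in an old SP cell outside the Ccl5+ set, 2 had one found in a Cd8b1+ cell, 1 had one found in old IEL, and 0 had one found in old CD4 CD8aa IEL. For the 192 Ccl5-negative Cd44+ cells of old SP the same counts, with cells outside their own set, were 30, 3, 2 and 1. A TRB found in a CD4-gated cell outside the set was held by 8 of the 145 Ccl5+ and 25 of the 192 Cd44+ cells.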

How the data were processed

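The authors deposited, for each of the 4 pools, a matrix of raw UMI counts per gene and cell (10x Genomics 5′ libraries, Cell Ranger 7.0.1 per the labels' processing notes, mm10) and a table of assembled T cell receptor contigs. Replicates were pooled before capture. Only the barcodes in the deposited filtered matrices were used, with no further filter on cells. The 3 samples that GEO describes as the gene expression, receptor and hashtag libraries have no group of their own and entered no comparison, and each file was tied to a pool by the name it shares with a sample title. The labels and methods give 3 mice per pool, whereas a legend of the study gives 6 young mice, so the number behind the young pools is uncertain.

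Counts were summed over the cells of a set and given as UMIs per 10000 UMIs (level). A ratio of levels had 0.1 added to both, and a gene was counted at 2-fold or more when its mean level was at least 0.2 and it had at least 20 UMIs over both sets. Shares of cells with a UMI used all UMIs of each cell unless given as thinned. For thinned shares each cell was reduced to 2000 UMIs. This left out 2 of 145 old and 1 of 134 young Ccl5+ cells, and 0 high-Ccl5 cells. Clonotypes used the TRB with most UMIs. Scrublet marked 1 doublet among the 5538 barcodes of old SP and 0 among the 5668 of young SP, too few for the caller to have worked, so doublets were not removed. For cells against Ccl5-negative Cd44+ cells of old SP, the 15 highest and 10 lowest ratios among the genes counted were named, and for each other main comparison the 8 highest and 8 lowest, without gate genes and receptor segments; genes of the lists could also be named, and results of some genes are not reported here. The population, gene lists and comparisons were chosen with earlier results of these data known. Python 3.11.15, numpy 2.4.6, scipy 1.17.1, pandas 2.3.3, scanpy 1.11.5 and matplotlib 3.10.9 were used, and the ratio and interval code was tested on simulated data. Alternatives varied the Ccl5 minimum, the pseudocount, the minimum level, thinning, doublets, cells with a UMI of Cd79a, Cd74, Lyz2 or Pf4, extra TRB chains and the largest clonotype. Gene and segment positions are from GENCODE M21 on GRCm38.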

Additional observations from a re-analysis of the deposited data

Results flagged for a closer look

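For 5 genes the ratio of high-Ccl5 CD4 cells (10 or more Ccl5 UMIs) to Ccl5-negative Cd44+ CD4 cells pointed in opposite directions in old and young SP, each by at least 2-fold. With 1 pool per age the difference between ages was not tested, and the counts are small. Arl5c had a log2 ratio of 1.34 in old SP (levels of 1.55 and 0.551) and -1.34 in young SP (0.345 and 1.03, from 7 and 119 UMIs). Arntl, a clock transcription factor, had -1.24 in old SP and 1.03 in young SP, from 5 and 40 UMIs and from 10 and 22. Cxcl10, an interferon-induced chemokine, had -1.92 in old SP from 2 and 44 UMIs and 2.63 in young SP from 16 and 5. P2rx7, an ATP receptor of T cells, had -1.19 in old SP (levels of 0.191 and 0.562) and 2.07 in young SP (1.33 and 0.242). Pdcd1lg2, which encodes the PD-1 ligand PD-L2, had -1.26 in old SP from 7 and 52 UMIs and 2.42 in young SP from 22 and 14. Of the 33 young high-Ccl5 cells 19 carried the TRAV11-TRAJ18 alpha chain against 2 of the 87 old ones, and its part in these 5 results was not tested.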

How the results depend on the processing

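No paired analysis was possible because each group is 1 pool. The minimum of Ccl5 UMIs moved the share of CD4-gated cells that were Ccl5+ most. In young SP it was 30.6% with a minimum of 1 UMI, 2.65% with 5, 2.08% with 10 and 3.38% when the gate was applied after thinning, and in old SP it was 36.1%, 10.1%, 9.02% and 10.9%, so the old share was above the young one under each of these. Genes higher in old Ccl5+ than in Ccl5-negative Cd44+ cells numbered 23 with a minimum of 1, 149 with 5, 159 with 10, 156 with 10 and no invariant chain, 27 with a pseudocount of 0.5 and 39 with a minimum level of 0.5. Genes lower there numbered 13, 131, 155, 163, 9 and 21, and 124 after thinning and 82 with no minimum level. Genes higher in old than in young Ccl5+ cells numbered 326 with a minimum of 10 and no invariant chain, 51 with the larger pseudocount and 77 with the larger minimum level. Genes lower there numbered 7, 163 and 196 with a minimum of 1, 5 and 10, 182 with 10 and no invariant chain, 10 with the pseudocount and 28 with the minimum level. Against old CD4 CD8aa IEL, 164 were higher and 266 lower with the pseudocount of 0.5, and 192 and 319 with the minimum level of 0.5. The cause of these moves was not tested, except that a larger pseudocount or minimum level leaves fewer genes past 2-fold by construction. For the 57 named ratios, 0 of 741 values under the alternatives turned sign, 3 were 0 (Sostdc1 in old against young cells with a Ccl5 minimum of 5 or 10, where it had no UMI), and 227 moved beyond the counting interval. A changed pseudocount or minimum level cannot turn a sign by construction. The doublet calls held 0 Ccl5+ spleen cells. The values under these settings were thus largely fixed in advance, and the count of 0 turned signs includes them. Thinning before gating and leaving out the invariant chain were chosen after seeing the data. In young Ccl5+ cells the largest clonotype could not be left out, since each holds 1 cell. With 33 young high-Ccl5 cells, low-level genes rest on few UMIs.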
